A study of Mus musculus with 20 samples.

Results

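miR-122a, the older name of miR-122, was measured by 1 of the 200 probes of a DNA chip for mouse miRNAs, and the probe was found by its name. The chip had been hybridized with small RNA of 5 organs (liver, lung, spleen, heart and kidney), so that the probe gave 20 values, 4 of them in liver. RefSeq lists the gene as Mir122. In each tissue 2 arrays came from klotho(-/-) mice and 2 from wild-type littermates, from different individual mice by the study's legend, and all mice were 5 weeks old. The study's methods describe the klotho-deficient mice as males and do not name the sex of the littermates. Mice without klotho are used as a model of early ageing. The deficiency is not restricted to one organ, the tissues were taken whole, and the strain is not given in the sources used here. Having 2 arrays per genotype limits the precision of every value below, and the chip does not measure the klotho mRNA, which leaves the genotype labels unchecked.

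miR-122 is the leading miRNA of the hepatocyte. It is transcribed from its own gene under liver transcription factors such as HNF4A, holds down genes that the adult hepatocyte does not use, and is needed for normal cholesterol and fatty acid metabolism in mouse liver. Hepatitis C virus binds it in human cells, and its release into blood is used as a sign of liver injury. Klotho itself is made mainly in kidney, where it serves as the co-receptor of the phosphate hormone FGF23.

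Few other miRNAs of the chip came near to the tissue pattern of miR-122a. The mature sequences of 4 of them, as RefSeq lists them for GRCm38.p6, are shown because they are set against miR-122a below: miR-101b, miR-194 and miR-192 had the tissue profiles most like that of miR-122a, and miR-22 was the next brightest probe in liver. Capitals mark the seed, bases 2 to 8, by which a miRNA finds its targets, and the 4 miRNAs had 4 different seeds.
miR-101b: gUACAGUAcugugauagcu
miR-194: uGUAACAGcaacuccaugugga
miR-192: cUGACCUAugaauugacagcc
miR-22: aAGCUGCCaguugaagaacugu

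The liver label was borne out by this probe. In liver the background-subtracted signal of miR-122a, in arbitrary units, was 4196 and 3120 on the klotho(-/-) arrays, against 1625 and 2125 on the wild-type arrays. On the 16 arrays of the other tissues it lay between 3 and 11, with a median of 4. No array of another tissue came near a liver array, and since the probe was chosen as the hepatocyte miRNA this is a description without a test. With a minimum signal of 10 for a probe to be read, the mean of the 4 liver arrays, 2766.5, was at least 277-fold higher than that of any other tissue, and at least 366-fold in klotho(-/-) and 188-fold in wild-type mice. Of the 129 miRNAs whose mean signal reached 10 in 1 tissue or more, miR-122a was in unscaled signals the only one with all 4 liver arrays above all 16 others. With each array divided by its sum without miR-122a, a scaling chosen after seeing the data, this held for 8 of the 129, among them miR-101b, miR-194, miR-192, miR-22 and miR-31. That divisor was 2537 to 6588 on liver arrays and 7313 or more on the others, and it leaves out the brightest probe of liver only. By construction it raises every probe in liver relative to the other tissues. The lowest liver array then exceeded the highest other array 534 times for miR-122a, 9.09 times for miR-101b and 1.97 times for miR-194.

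**Figure D1:**
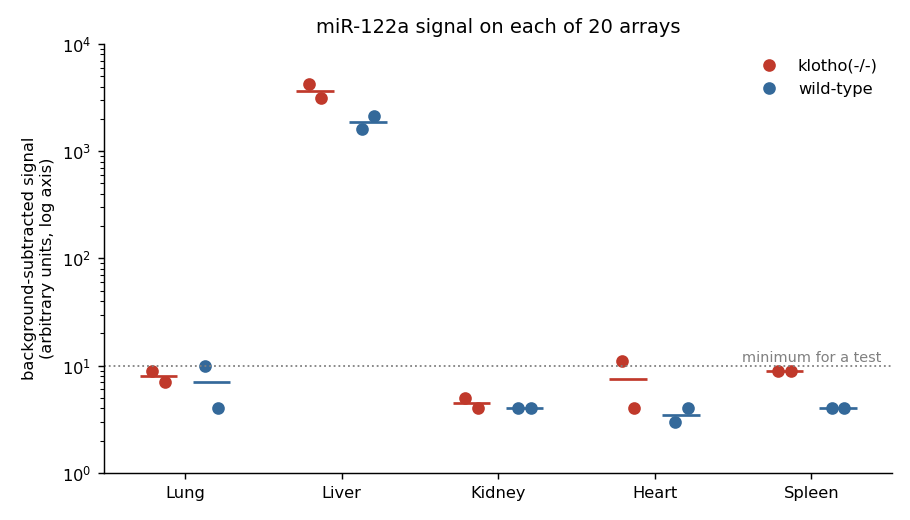
Background-subtracted signal of miR-122a on each of the 20 arrays (log axis), by tissue, with klotho(-/-) in red on the left and wild-type in blue on the right of each tissue. Points are arrays and lines are means of 2 arrays. The liver arrays sit between 1625 and 4196 and the others between 3 and 11, around the dotted minimum signal of 10.

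Outside liver the order of the tissues could not be told. Lung had a mean of 7.5 ± 2.65 (SD, n = 4 arrays), spleen of 6.5 ± 2.89, heart of 5.5 ± 3.70 and kidney of 4.25 ± 0.50. The ranges of these 4 tissues overlapped, and all 4 means lay under the minimum signal, which is 0.361% of the liver mean. Before subtraction the intensity of the probe was 21.8 to 29.4 on these arrays, while their dimmest probe had 18.4 to 21.4. By brightness the probe took ranks 85 to 131 of 200. It was above the median probe on 1 of the 16 arrays, and reached 10 on 2 of them, klotho(-/-) Heart 1 (11) and wild-type Lung 1 (10). It was therefore not tested between genotypes in these tissues.

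In spleen the signal was 9 on both klotho(-/-) arrays and 4 on both wild-type arrays. The genotypes did not overlap there, and this was so, with klotho(-/-) higher, for 10 of the 200 probes in spleen (5%). That count is for deposited signals and was not made for shares of the summed signal. The study found its duplicate chips reproducible except for the klotho(-/-) spleen, where it considered individual differences a possible reason. Relative to the summed signal, miR-122a made up 0.0953% and 0.113% of klotho(-/-) spleen, against 0.0322% and 0.0547% of wild-type spleen. These values lie under the minimum signal, and 2 arrays against 2 cannot give an exact p below 0.333. Heart stood at 11 and 4 in klotho(-/-) and at 3 and 4 in wild-type mice, lung at 9 and 7 in klotho(-/-) and at 10 and 4 in wild-type mice, and kidney at 5 and 4 in klotho(-/-) and at 4 on both wild-type arrays. In these 3 tissues the genotypes overlapped or touched.

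miR-122a dominated the liver arrays. It made up 38.9% and 39.5% of the summed signal of all 200 probes on the klotho(-/-) liver arrays, against 39.0% and 37.7% on the wild-type arrays. The next brightest probe on each of the 4 arrays was miR-22, a miRNA expressed in many tissues, at 478 and 390 in klotho(-/-) and 228 and 283 in wild-type liver. miR-122a was thus 8.78 and 8 times as bright as miR-22 in klotho(-/-) liver, and 7.13 and 7.51 times in wild-type liver, although signals of different probes also depend on how well each probe binds. After miR-22 came let-7a, let-7f, miR-21 and let-7c, whose mean signals of 176 to 229.5 were exceeded 12.1 to 15.7 times by that of miR-122a.

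No other tissue had a probe with such a share. In heart the brightest probe was miR-1, a miRNA of striated muscle, with 12.3% to 14.2% of the summed signal, closely followed by miR-133a. In lung, kidney and spleen the brightest probe held 4.07% to 6.91%. The liver arrays also had the fewest probes at a signal of 10 or more, 51 to 67 against 82 to 116 on the other arrays, and their median probe was at 2 to 3. This count was not scaled for the brightness of the array. Within liver it was 67 at the largest summed signal and 51 at the smallest. The summed signal was 4162 to 10784 in liver and 7317 to 57568 elsewhere.

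**Figure D2:**
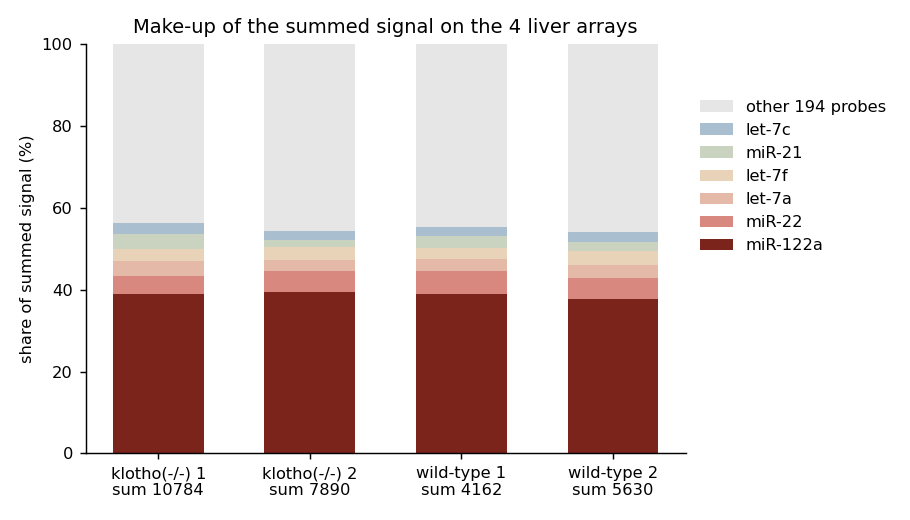
Share of the summed background-subtracted signal (percent, 200 probes) taken by miR-122a and the 5 next brightest probes on each liver array, with klotho(-/-) on the left, and the summed signal under each bar. miR-122a takes 37.7% to 39.5% on the 4 arrays, although their sums run from 4162 to 10784.

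The question of the study was which miRNAs differ in klotho(-/-) tissues. In deposited signals miR-122a averaged 3658 ± 761 in klotho(-/-) liver and 1875 ± 354 in wild-type liver (SD, n = 2 arrays each), a ratio of 1.95, and the genotypes did not overlap. The same held for most of the liver profile. Of the 61 probes with a mean signal of at least 10 in liver, 50 had both klotho(-/-) arrays above both wild-type arrays (82%), and the median ratio of the 61 was 1.87. miR-122a took rank 26 from the highest ratio, between miR-23a (1.98) and let-7d (1.93), with 25 probes above it and 35 below. Its log2 ratio of 0.96 stood between the quartiles of the probes, 0.61 and 1.10. Further neighbours were let-7c, miR-185 and let-7e (each close to 2) above it, and let-7b (1.92) and miR-101b (1.90) below it. The highest ratio belonged to miR-25, named after its values were seen, and rested on 1 array, with 8 and 136 in klotho(-/-) liver and 4 and 5 in wild-type liver.

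**Figure D3:**
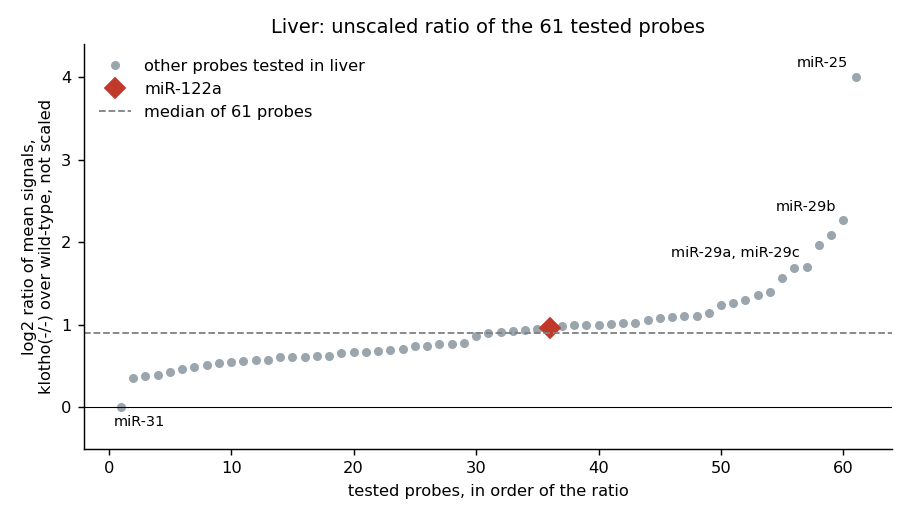
Log2 ratio of mean deposited signals, klotho(-/-) over wild-type liver, without scaling, for the 61 tested probes in order of the ratio. miR-122a (diamond) lies at 0.96, close to the dashed median of the 61 probes at 0.90, while miR-29b lies at 2.26 and miR-31 at 0.

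The klotho(-/-) liver arrays were brighter as a whole, and the scaling used for the test takes this out. It would also take out a rise that most probes share. The klotho(-/-) sums were 10784 and 7890 and the wild-type sums 4162 and 5630, a ratio of means of 1.91, and without miR-122a the ratio was 1.88. The source of this difference was not tested. The share of miR-122a in the summed signal needs no scaling, and it averaged 39.2% ± 0.448 in klotho(-/-) liver and 38.4% ± 0.919 in wild-type liver (SD, n = 2 arrays each). The difference of 0.83 percentage points was smaller than the SD of the wild-type pair, and the genotypes overlapped (two-sided exact permutation test, p = 0.667, smallest possible 0.333). With signals corrected by the normexp method the difference was 1.47 points and the genotypes did not overlap (exact permutation test, p = 0.333).

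Set against the sum of all other probes, miR-122a stood at 0.637 and 0.654 in klotho(-/-) liver, and at 0.641 and 0.606 in wild-type liver. The highest of these 4 values was 1.08 times the lowest. By this measure only miR-126-3p, a miRNA of endothelial cells, varied less among the 61 probes (1.07 times), and the median probe varied 1.40 times. For every other probe the sum includes miR-122a, and signals in whole numbers make the ratio coarser for dim probes. The order by this measure therefore has no test. In deposited signals themselves the brightest liver array had 2.58 times the miR-122a of the dimmest.

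For the test between genotypes each liver array was scaled so that the median ratio of the 61 probes to their geometric mean was 1. After scaling, miR-122a was at 2818 and 2648 in klotho(-/-) liver, against 2490.5 and 2432 in wild-type liver. Both klotho(-/-) arrays were above both wild-type arrays, as for 13 of the 61 probes (21.3%). The log2 difference was 0.15 ± 0.05 (SE, n = 2 arrays per genotype), with a 95% confidence interval of 0.01 to 0.28. This corresponds to a ratio of scaled means of 1.11. The unadjusted p was 0.0381 in limma and miR-122a did not pass after Benjamini-Hochberg adjustment over the 61 probes (adjusted p = 0.464). It was 1 of 5 probes with an unadjusted p under 0.05 and the last of them by p, while 3 probes (4.92%) passed after adjustment. In whole tissue, fewer hepatocytes and less miR-122a per hepatocyte cannot be told apart, nor can more of either.

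The probes that passed were miR-29b, miR-29a and miR-29c, the family that the study took up and that restrains collagen genes. They rose in klotho(-/-) liver, with log2 differences of 0.82 ± 0.09, 0.59 ± 0.08 and 0.45 ± 0.07 (SE, n = 2 arrays per genotype, limma adjusted p = 0.0365, 0.0386 and 0.0386). A constant, the pseudocount, was added to each signal before the log2, and it draws differences of dim probes such as these toward 0. Scaled signals without it were 115 and 104 in klotho(-/-) liver against 35.3 and 45.3 in wild-type liver for miR-29b. They were 145 and 131 against 73.4 and 77.4 for miR-29a, and 71.1 and 77.4 against 39.0 and 42.5 for miR-29c. For miR-122a a pseudocount of 1 also gave 0.15. The number that passed was 5 without klotho(-/-) Liver 1, 10 without klotho(-/-) Liver 2, 2 without the second wild-type array and 0 without the first (limma, unadjusted p under 0.05 for 3), and miR-122a was not among them in any of these fits (adjusted p = 0.423 to 0.963).

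The size of the difference depended on what miR-122a was set against. It was 0.94 on the log2 scale with no scaling (adjusted p = 0.111), 0.088 with scaling to the sum of the other probes (0.0592) and 0.054 with scaling to the sum of all probes (0.0614). Quantile normalization gave 0 by construction, within liver and over all 20 arrays, because a probe that is the brightest on every liver array receives the same value on each. Under none of these settings, nor with the other table, other pseudocounts, other minimum signals or 1 model over all 20 arrays, did miR-122a pass. The study listed miRNAs by a fold change over 1.5 or under 0.5, and printed it separately for 2 experiments. The signals it printed for liver are those of the 2 numbered pairs of arrays. Of the 61 probes 11 had a ratio over 1.5 in both pairs, and miR-122a, at 2.58 in the first pair and 1.47 in the second, was not among them. The 11 included miR-25, which the liver list in the study's main text does not hold. They left out miR-126-3p, at 1.5 in the second pair, which is on that list. In the first pair 59 of the 61 probes exceeded 1.5.

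**Figure D4:**
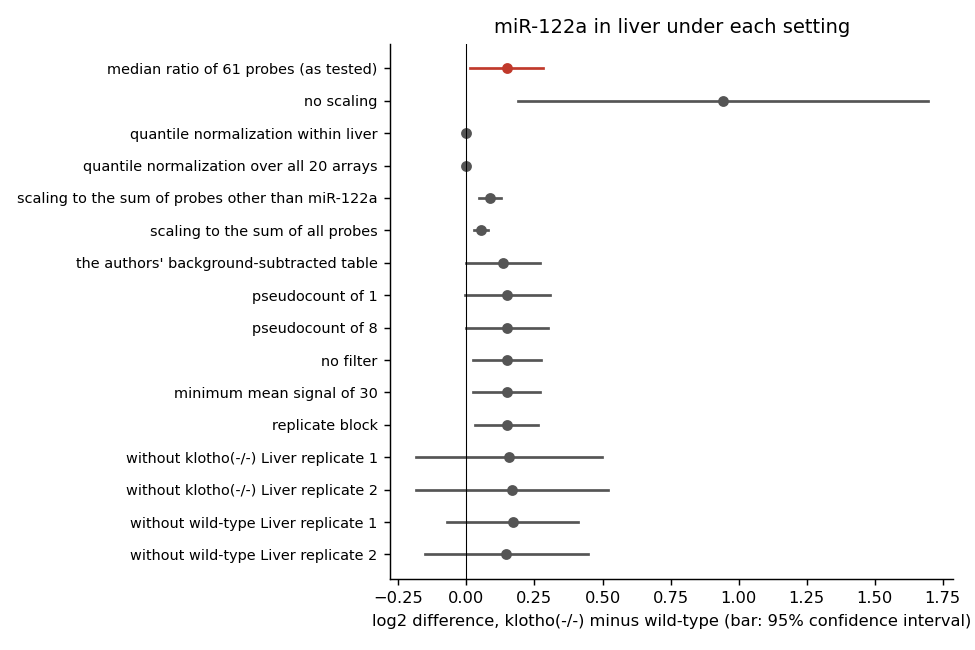
Log2 difference of miR-122a in liver, klotho(-/-) minus wild-type, under each setting that gave a confidence interval. Points are estimates and bars 95% confidence intervals from limma, with the scaling used for the test in red at the top (0.15, interval 0.01 to 0.28) and the estimate without scaling at 0.94.

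Of 10 miRNAs on a list for hepatocytes and liver 9 were on the chip, counting miR-122a. The others were dimmer than miR-122a in liver, and 7 of the 8 that were tested had a higher mean signal in another tissue before scaling. Of these 8, 0 passed in either direction (limma, unadjusted p under 0.05 for 0), beside 4.92% of all 61 probes, a share at which 0 of 8 says nothing particular about the list. After scaling their log2 difference was above 0 for 4 and below 0 for 4, with a median of 0.02, as for all 61 probes, and a range of -0.20 (miR-193) to 0.17 (miR-101a). These differences include the pseudocount, which draws those of dim probes toward 0. miR-192 and miR-194 share transcripts and are also found in kidney and gut epithelium. They were at 35 and 36 (miR-192) and at 216 and 193 (miR-194) in klotho(-/-) liver. In wild-type liver they were at 18 and 28 (miR-192) and at 103 and 163 (miR-194). miR-101b stood at 131 and 116 in klotho(-/-) and at 55 and 75 in wild-type liver. Summed, the 8 members other than miR-122a gave 1487 and 1081 in klotho(-/-) and 617 and 827 in wild-type liver. miR-122a was 2.82 and 2.89 times this sum in klotho(-/-) liver and 2.63 and 2.57 times in wild-type liver.

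miR-122a was also set against each tested probe in turn. Over the 60 other tested probes, the ratio of miR-122a to the probe was higher on both klotho(-/-) arrays than on both wild-type arrays for 23, lower for 9 and overlapping for 28, and these counts have no test. To miR-194 the ratio was 19.4 and 16.2 in klotho(-/-) liver, against 15.8 and 13.0 in wild-type liver. To miR-29b it was 24.5 and 25.6 in klotho(-/-) liver, against 73.9 and 54.5 in wild-type liver, where miR-29b had passed the test and miR-122a had not. To the endothelial miR-126-3p it was 43.3 on both klotho(-/-) arrays, against 45.1 and 44.3 on the wild-type arrays.

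miRNAs of other cell types were dim in these livers. The 4 leukocyte miRNAs on the chip (miR-142-3p, miR-142-5p, miR-150 and miR-155) had at most 5 on any liver array and summed to 12 and 12 in klotho(-/-) and 8 and 9 in wild-type liver. The 5 miRNAs of striated muscle, miR-1 among them, had at most 3, the 4 epithelial members (miR-141 and the miR-200 family) at most 6, and miR-375 of pancreatic islets at most 2. miR-144 of red cell precursors was at 13 and 9 in klotho(-/-) and 5 and 6 in wild-type liver. More signal came from miR-126-3p, at 97 and 72 in klotho(-/-) and 36 and 48 in wild-type liver, and from miR-143 and miR-145 of smooth muscle and stellate cells. The smooth muscle and fibroblast list summed to 121 and 98 in klotho(-/-) and 50 and 61 in wild-type liver, and miR-122a was 31.8 to 34.7 times this sum in klotho(-/-) and 32.5 to 34.8 times in wild-type liver. Of the 3 tested members of these lists 0 passed (limma, unadjusted p under 0.05 for 0). Of all 61 probes 4.92% passed, a share at which 0 of 3 says nothing particular about these lists.

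To find the miRNAs with a pattern most like that of miR-122a, the mean signal of each of the 129 miRNAs in a tissue was taken as a share of its sum over the 5 tissues, and the overlap of 2 profiles as the sum of the smaller shares. For miR-122a the liver held 99.1%. The most similar was miR-101b with an overlap of 42.3% and a liver share of 41.4%, followed by miR-194 (40.9%) and miR-192 (39.5%), both of which had their largest share in kidney in unscaled signals (48.1% and 43.9%). Next were miR-31 (23.4%) and miR-290 (22.4%), and the median overlap of all other probes was 5.08%. The overlap rests on 5 tissue means and has no test. With each array divided by its sum without miR-122a, the overlap was 79.0% for miR-101b, 72.4% for miR-194, 72.2% for miR-192 and 65.3% for miR-31, in the same order, and miR-25 (51.8%) came before miR-290 (50.5%). Liver then held the largest share of miR-194 (72.2%, with 22.9% in kidney) and of miR-192 (71.9%, with 21.5% in kidney). By construction this scaling raises the liver share of every probe, so the higher overlaps are partly its effect.

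**Figure D5:**
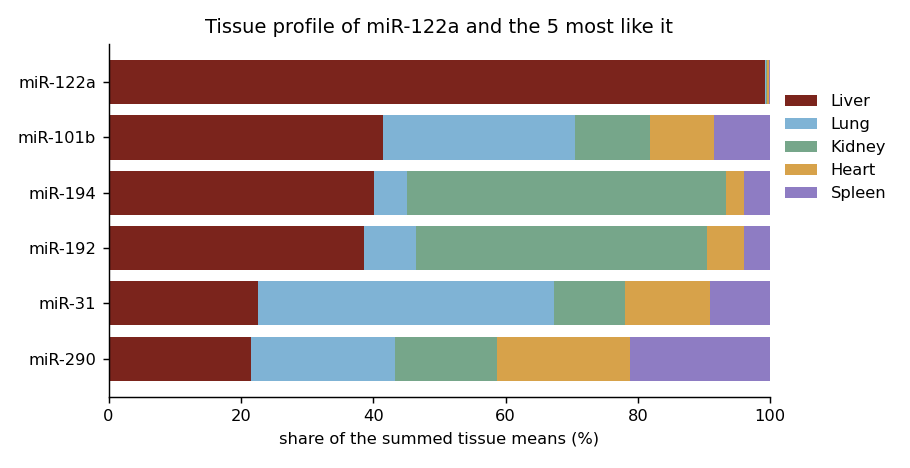
Tissue profile of miR-122a and of the 5 miRNAs whose profile overlaps most with it: the mean unscaled signal in each tissue (4 arrays) as a percentage of its sum over the 5 tissues. Liver holds 99.1% of miR-122a, 41.4% of miR-101b and less of the others.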

How the data were processed

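The authors deposited 2 tables of fluorescence intensity for 200 probes and 20 arrays of a single dye. One table holds intensity with its background left in. The other, already corrected by the authors, is in whole numbers. For all but the dim probes it was lower by a median of 16.7 to 21.7 per array, with no scaling between arrays. Whether the dim probes had the same amount taken off was not checked. The scanner and the background method are not given in the sources used here. Signals, shares, ratios and tissue profiles were taken from the corrected table, which carries no detection flags.

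For the test, the uncorrected table went through normexp background correction (limma 3.58.1, R 4.3.3), was scaled within liver by the median ratio of the 61 probes with a mean signal of at least 10, and was taken to log2 with a pseudocount of 50, which draws differences of dim probes toward 0. The 4 liver arrays were fitted alone (lmFit, eBayes with a trend), since the spread of miR-122a in tissues near the background would be too small for liver. P-values were adjusted by Benjamini-Hochberg over the 61 probes, with a threshold of 0.05. The steps were tested on simulated data. The fit with the array number as a block and the other alternatives are described in the closing section, and Student's test is the one named in the study's methods.

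The miRNAs named were the members of the lists, the 5 brightest in liver, the 5 with the most similar profile, the neighbours of miR-122a in the order of ratios, and those that passed. miR-25 falls outside this rule and was named after its values were seen. The probe, the lists and the settings were chosen with earlier results of these data known.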

Additional observations from a re-analysis of the deposited data

How the results depend on the processing

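The log2 difference of miR-122a in liver was 0 or above under all 17 alternatives and passed in 0 of them (limma or Student's test, unadjusted p under 0.05 in 7, main value 0.15). Leaving out 1 array at a time gave 0.15 to 0.17, where the lone array was assumed to vary like the other group. Student's test on the deposited signals gave a log2 ratio of 0.96 (adjusted p = 0.288). The difference in share stayed above 0 in all 8 alternatives, at 0.21 points over the 61 probes, 1.22 points over the 10 brightest and 0.18 to 1.48 points with 1 array left out. The at least 277-fold excess over the other tissues ran from 188 to 369 over 9 alternatives.

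The number of liver probes that passed was 3, and 5 with no scaling, 1 with quantile normalization over all 20 arrays, 1 with scaling to the sum of probes other than miR-122a, 0 with scaling to the sum of all probes (limma, unadjusted p under 0.05 for 5), 1 with no filter, 0 by Student's test (unadjusted p under 0.05 for 6), and 0 to 10 with 1 array left out. With the replicate number as a block it was 6, and miR-122a was unchanged at 0.15 (adjusted p = 0.119), with its share difference at 0.83 points. Deviations of arrays of one number correlated at 0.514 over the 61 probes in liver, which rests on 2 pairs. The study printed arrays of one number side by side as 1 experiment. The main fit did not use this pairing, so any variation that arrays of one number share stayed in its residual spread. With the block the unadjusted p of miR-122a was 0.0137 in limma, against 0.0381 in the main fit. Depth in the sense of signal over background limits miR-122a outside liver, where it was below the minimum signal on all but 2 of 16 arrays, while 2 arrays per genotype limit the liver values.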
